A study of Mus with 8 samples.

Results

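Interferon-stimulated genes are the genes that cells switch on when interferon, a secreted alarm signal of virus infection, binds its receptors. For this account 50 such genes were chosen by name from knowledge of the pathway, and their rows were taken from a table of read counts on 24013 genes in the mouse preadipocyte line 3T3-L1, which turns into fat cells in culture. The list was proposed with earlier results of these libraries in view, in which genes of the interferon response moved, and it is not recorded which comparison weighed in that choice. The calls below therefore describe the members and are not independent support for a change of the list. A row was found for 49 of the 50 genes, and all 49 passed the filter on low counts that left 13339 genes for testing. Rnf213, the last of the 50, was not analysed here.

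Type I interferon binds a receptor made of IFNAR1 and IFNAR2, and the kinases JAK1 and TYK2 then activate STAT proteins, STAT2 among them, which join IRF9 and bind the promoters of these genes. Among the products are sensors that detect viral RNA or DNA, enzymes switched on by double-stranded RNA, effectors that block entry or replication of viruses, and transcription factors that feed the response forward. Fibroblast-like cells such as preadipocytes both make and answer interferon, and many of these genes also keep a low basal level without infection.

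The C cells had been infected with a lentivirus carrying a scrambled shRNA, and the P cells with one carrying an shRNA against Prep1, a homeodomain transcription factor encoded by Pknox1. Both lines therefore carried a lentiviral vector and had been selected with puromycin, and the P cells stand for a single knockdown line. RNA was taken at day −2, before the hormones were given (uninduced cells), and at day 1 (induced cells) of adipogenic induction with 1 µM dexamethasone, 0.5 mM IBMX and 1 µg/ml insulin. Calf serum was exchanged for fetal serum at induction, so hormones, serum and time cannot be told apart in the comparison of the days. Each of the 4 conditions had 2 biological replicas, and the p-values measure the spread between these libraries.

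The 8 libraries held 20428816 to 27614353 counts, and 3 counts in a library corresponded to 0.107 to 0.160 CPM (counts scaled to library size with TMM factors), a floor that covers counting error only. Pknox1 stood at 28.1 and 26.4 CPM in C cells and 17.3 and 18.3 CPM in P cells at day −2. After induction it stood at 38.1 and 36.5 CPM in C cells and 23.6 and 23.8 CPM in P cells. The log2 P/C ratio was −0.62 before induction (SE 0.141, adjusted p = 0.0558) and −0.65 after it (SE 0.140, adjusted p = 0.0575), so its transcript was lower in P cells at both days but did not pass the ratio of 0.5 used below. Replica 1 of uninduced P cells stood apart, with the lowest TMM factor (0.837) and the fewest genes detected (16232), and the replicas of this condition differed by more than 2-fold in 3686 genes, against 332 in uninduced C cells, 576 in induced C cells and 667 in induced P cells. Preadipocyte and fibroblast markers, collagens among them, summed to 25310 and 81480 CPM in its 2 libraries, the higher value in replica 1. In the other conditions they summed to between 19740 and 37810 CPM. The sum in replica 1 rests mainly on Col1a1, Col1a2 and Col3a1 (23560, 28500 and 15770 CPM). Of the 10 markers, 7 had a log2 P/C ratio above 0 at day −2 and 3 (Dlk1, Cd34 and Fn1) below 0, beside 6748 and 6591 of all 13339 genes tested.

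Most of the interferon-stimulated genes were lowest in uninduced C cells and highest in induced C cells, and their median in P cells lay between these levels at both days. Here a gene was called when its adjusted p was under 0.1 and its ratio over 2 or under 0.5, and the median log2 ratio over all genes tested lay between −0.01 and 0.02 in every comparison. Between uninduced P and C cells, 30 of 49 members were called higher and 1 lower, where 4.83% and 2.15% of all genes were called, and the median log2 ratio of the members was 1.42. By induction of C cells, 38 were called higher and 0 lower, against 10.7% and 9.68% of all genes, with a median of 2.37. Induction of P cells called 6 higher and 2 lower, against 7.65% and 10.4%, with a median of 0.26. At day 1, 0 members were called higher and 10 lower in P than in C cells, against 1.83% and 2.23%, with a median of −0.58. For the counts of 0, at an unadjusted p under 0.05 in edgeR's quasi-likelihood test 44 members in the induction of C cells and 28 between induced P and C cells passed in either direction, and DESeq2 called 0 in the same directions.

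Relative to the mean of uninduced C cells, the median member stood at 1.32 and 1.40 on the log2 scale in the 2 libraries of uninduced P cells, at 1.73 and 1.72 in induced P cells, and at 2.33 and 2.43 in induced C cells. The libraries of each condition lay closer to each other than to those of any other condition. In 27 of the 49 genes the condition means followed this order exactly, against 7.89% of all genes tested. The mean was highest in induced C cells in 39 members, against 22.6% of all genes, and lowest in uninduced C cells in 41, against 28% of all genes (ties counted). Uba7, Ube2l6, Parp9 and Trim21 were instead highest in uninduced P cells, Ifih1, Samd9l, Sp100 and Ifi27 in induced P cells, and Ifit2 and Isg20 in uninduced C cells.

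**Figure D1:**
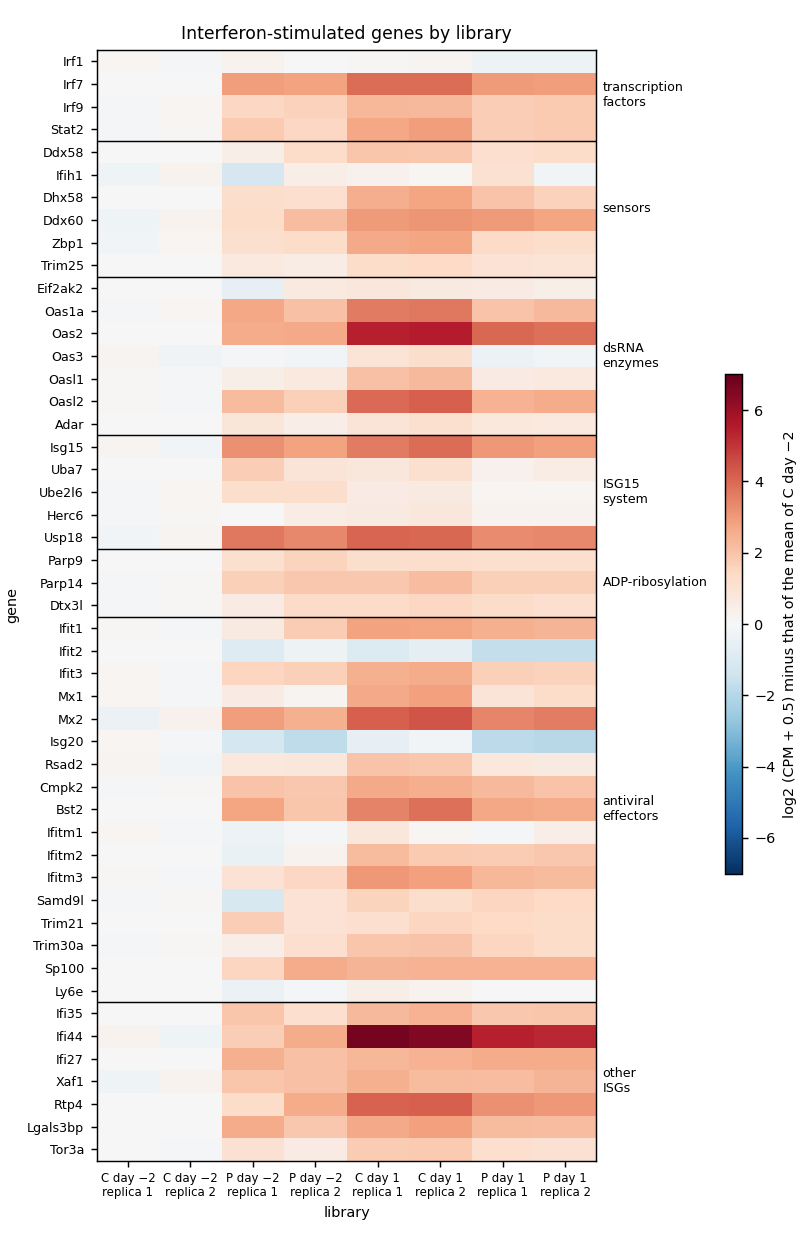
Colour map of the 49 genes (rows, in groups by role) in the 8 libraries (columns), with the colour giving log2 of CPM + 0.5 minus that of the mean of uninduced C cells. Red prevails in the columns of uninduced P cells, deepens in induced C cells and is paler again in induced P cells, while Isg20 and Ifit2 are blue outside uninduced C cells.

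Both P libraries lay above both C libraries at day −2 in 38 of 49 members, where this held for 26.5% of all genes tested. Isg20, Ifit2 and Ly6e were the 3 members with both P libraries below both C libraries, a pattern whose share over all genes was not computed. The libraries overlapped in Irf1, Ifih1, Eif2ak2, Oas3, Herc6, Ifitm1, Ifitm2 and Samd9l. The 2 replicas of uninduced P cells differed by more than 2-fold in 7 members, with replica 2 the higher each time, from Samd9l (4.38-fold) and Ifih1 (3.23-fold) through Rtp4, Eif2ak2, Ifit1 and Sp100 to Ddx60 (2.04-fold). Across the members, the log2 difference between the replicas had an SD of 0.719 in this condition. It was 0.371 in uninduced C cells, 0.256 in induced C cells and 0.295 in induced P cells. Over all genes tested the SD in uninduced P cells was 1.001, and 3686 of 13339 genes differed by more than 2-fold there.

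**Figure D2:**
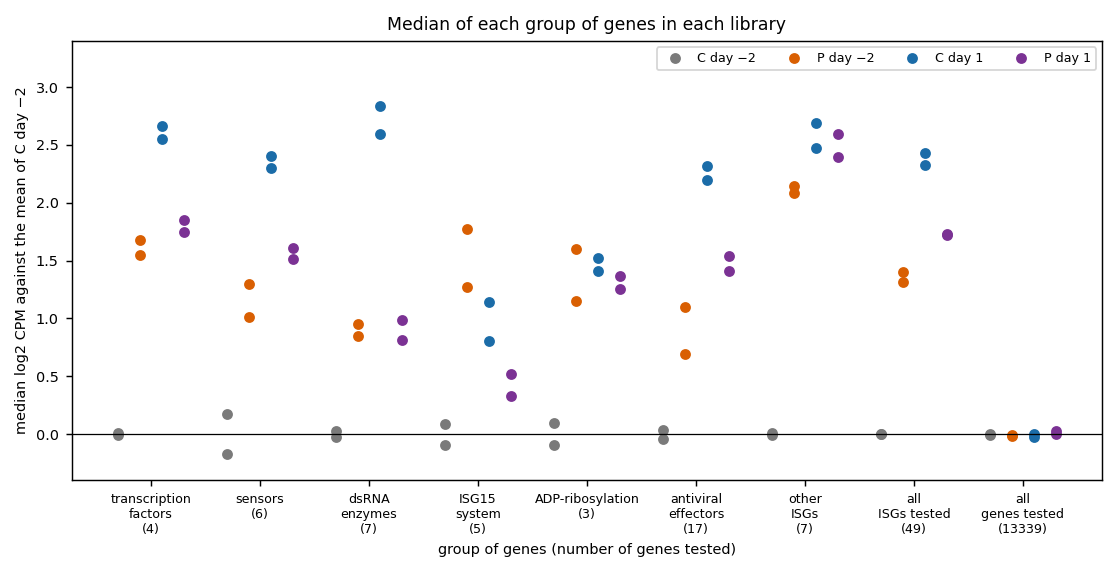
Median over the genes of each role (horizontal axis, with the number of genes tested) of log2 CPM against the mean of uninduced C cells (vertical axis), with 1 point per library, coloured by condition. In most roles induced C cells hold the highest points, while in the ISG15 system both points and in ADP-ribosylation 1 point of uninduced P cells lie above them, and the points of all genes tested stay near 0.

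The transcription factors of the response rose together, apart from Irf1. Between uninduced P and C cells, 3 of 4 were called higher, with a median log2 ratio of 1.63 for the group. Irf7, the factor that amplifies interferon transcription, stood at 1.12 and 1.02 CPM in C cells and 11.4 and 10.5 CPM in P cells at day −2. After induction Irf7 had 23.2 and 22.6 CPM in C cells and 11.8 and 11.6 CPM in P cells. Uninduced and induced P cells lay near each other and induced C cells above both, with no overlap of C cells with P cells at either day. Its log2 P/C ratio was 3.35 at day −2 (10.2-fold, SE 0.190, adjusted p = 0.00108), while the ratio of day 1 to day −2 was 4.42 in C cells (SE 0.195, adjusted p = 6.16e-05) and 0.09 in P cells (adjusted p = 0.708). At day 1 the P/C ratio of Irf7 was −0.97 (adjusted p = 0.0265), just short of the 2-fold threshold.

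Stat2, a component of the interferon-activated transcription complex, had 14.6 and 16.4 CPM in C cells and 57.2 and 42.6 CPM in P cells at day −2. After induction Stat2 had 105 and 123 CPM in C cells and 51.5 and 55.7 CPM in P cells. Its libraries did not overlap between P and C cells, and P cells changed from the upper side at day −2 (log2 ratio 1.69, SE 0.195, adjusted p = 0.0055) to the lower side at day 1 (log2 ratio −1.09, SE 0.190, adjusted p = 0.031). Irf9, which gives this complex its DNA binding, rose by a log2 ratio of 1.56 in uninduced P cells and of 2.34 by induction of C cells, and its P/C ratio at day 1 of −0.52 was not called. Irf1, a factor driven by type II interferon as well, was the exception, with 42.8 and 36.1 CPM in C cells and 46.9 and 39.8 CPM in P cells at day −2, and 42.3 and 45.4 CPM in C cells and 30.6 and 30.8 CPM in P cells at day 1. None of its 4 ratios was called, and the largest was −0.52 for induced P against C cells (adjusted p = 0.161). The span of the gene annotated for Stat2 overlaps that of Apof in the annotation of a later build, and it was not stated how reads shared by overlapping genes were counted.

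Sensors were raised by induction in C cells in 5 of 6 cases and in uninduced P cells in 3 of 6. The family led by Ddx58 (RIG-I) recognizes viral RNA in the cytoplasm. Ddx58 itself had 27.6 and 26.2 CPM in C cells and 36.5 and 67.1 CPM in P cells at day −2, and 105 and 102 CPM in C cells and 62.4 and 66.9 CPM in P cells at day 1. The uninduced P libraries lay above both C libraries but far from each other, and the log2 ratio of 0.95 missed the ratio threshold (adjusted p = 0.0955), whereas induction raised it in C cells by 1.94 (adjusted p = 0.00346). Dhx58 (LGP2), a regulator of the other RNA helicases of this family, rose by 1.31 in uninduced P cells and by 2.79 in C cells by induction. Ifih1 (MDA5), the sensor of long double-stranded RNA, was not called in any comparison, and its uninduced P libraries (5.54 and 18.1 CPM) lay on either side of its C libraries (10.2 and 15.6 CPM).

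Zbp1, a sensor of nucleic acids in the left-handed Z form, had 0.279 and 0.487 CPM in C cells and 1.39 and 1.68 CPM in P cells at day −2. After induction Zbp1 had 5.13 and 5.42 CPM in C cells and 1.75 and 1.59 CPM in P cells. It was called in the same pattern as Stat2, with a log2 P/C ratio of 1.999 at day −2 (SE 0.367, adjusted p = 0.0281) and of −1.66 at day 1 (SE 0.317, adjusted p = 0.0404). The ratio of induced to uninduced P cells was 0.12 on the log2 scale, and C cells rose by 3.77. Ddx60, a helicase reported to help RIG-I, was the one sensor called by induction in both lines, by 3.80 in C cells and 1.19 in P cells (adjusted p = 0.00199 and 0.0803), and it was higher in uninduced P cells by 2.45. Without replica 2 of uninduced P cells the ratio of Ddx60 was 1.82 by induction of P cells and 1.83 in uninduced P cells. Without replica 2 of uninduced C cells it was 4.42 by induction of C cells and 3.07, no longer called, in uninduced P cells. With a library left out, the ratio of Ddx60 by induction of P cells ranged from 0.76 to 1.82, and most of these fits lost the call. The libraries of P cells alone or an adjusted p under 0.05 lost it as well. Trim25, the ubiquitin ligase that activates RIG-I, rose by 1.34 in C cells by induction, and its ratio of 0.62 between uninduced P and C cells did not reach 2-fold.

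**Figure D3:**
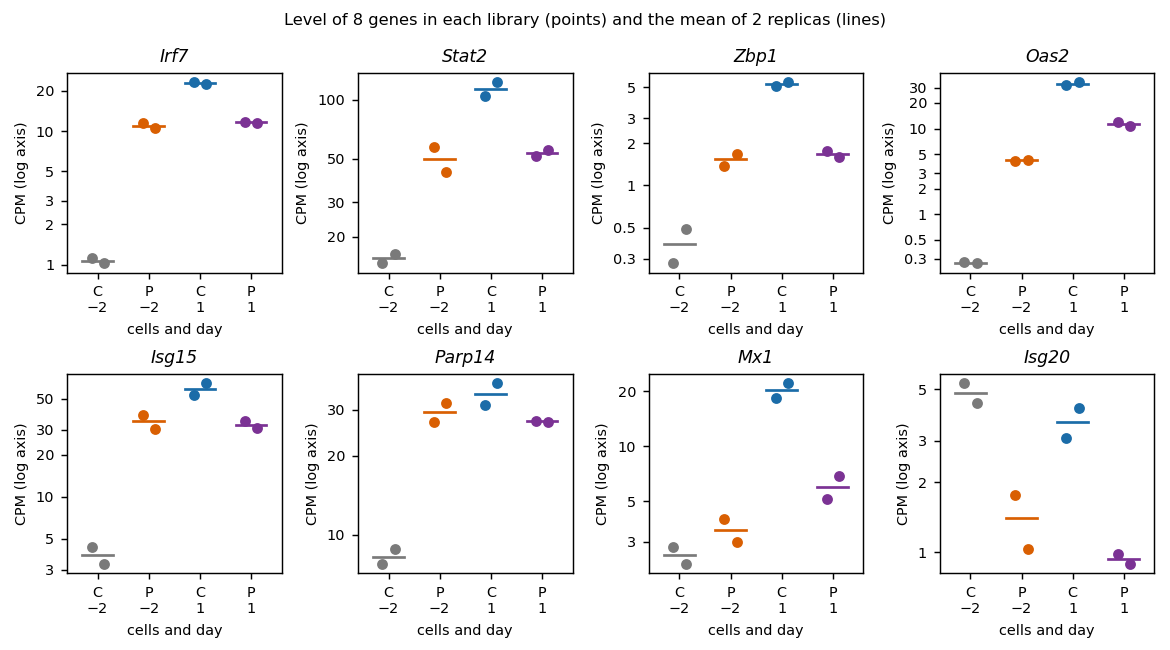
CPM of 8 genes (log axes, 1 panel per gene) in each library (points) with the mean of 2 replicas (lines), for C and P cells before and after induction. In Irf7, Stat2, Zbp1, Oas2 and Isg15 the lowest points are those of uninduced C cells and the highest those of induced C cells, Parp14 is level in the last 3 conditions, Mx1 rises mainly in induced C cells, and Isg20 is lower in P cells at both days.

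The 2′-5′-oligoadenylate synthetases, which sense double-stranded RNA and switch on RNase L, and their relatives made up 5 of the 10 members called lower in induced P than in induced C cells. These were Oas1a, Oas2, Oas3, Oasl1 and Oasl2, and with Eif2ak2 and Adar they form a group of 7 enzymes with a median log2 ratio of −1.56. Oas2 had 0.279 and 0.266 CPM in C cells and 4.15 and 4.35 CPM in P cells at day −2. After induction Oas2 had 32.6 and 34.9 CPM in C cells and 12 and 10.9 CPM in P cells. No libraries of different conditions overlapped. The C cells rose by 6.93 on the log2 scale (122-fold, SE 0.231, adjusted p = 6.16e-05) and the P cells by 1.43 (SE 0.169, adjusted p = 0.00214), so that a P/C ratio of 3.94 at day −2 (SE 0.226, adjusted p = 0.00108) became one of −1.56 at day 1 (SE 0.164, adjusted p = 0.00597). The value in uninduced C cells rests on 7 and 6 counts, which makes these folds imprecise.

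Oasl2, an oligoadenylate synthetase-like protein, had 4.07 and 3.46 CPM in C cells and 19.5 and 12.8 CPM in P cells at day −2. After induction Oasl2 had 66.9 and 76.3 CPM in C cells and 22.7 and 25.8 CPM in P cells. The P libraries were above the C libraries before induction (log2 ratio 2.10, adjusted p = 0.00579) and below them after it (log2 ratio −1.56, SE 0.231, adjusted p = 0.0183). Oas1a behaved likewise, with 1.08 and 1.37 CPM in C cells and 10.7 and 6.67 CPM in P cells at day −2. After induction Oas1a had 21 and 21.7 CPM in C cells and 6.5 and 7.8 CPM in P cells. Its log2 P/C ratio was 2.82 before induction (adjusted p = 0.00435) and −1.58 at day 1 (SE 0.270, adjusted p = 0.0285), and reads may be split between it and its near copies such as Oas1g, which held 2 to 169 counts.

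Oasl1 was not called at day −2, with 0.717 and 0.576 CPM in C cells and 1.01 and 1.32 CPM in P cells. After induction Oasl1 had 4.3 and 5.1 CPM in C cells and 1.2 and 1.35 CPM in P cells. The induced C libraries stood above the 6 others, and the log2 P/C ratio was 0.85 before induction (adjusted p = 0.175) and −1.88 at day 1 (SE 0.310, adjusted p = 0.0256). Oas3 was barely detected, at 0.256 to 1.87 CPM over the libraries, and was called higher by induction of C cells (1.73) and lower in induced P cells (−2.39). Among the other enzymes, Adar, which edits adenosine in double-stranded RNA, rose by 1.02 by induction of C cells, and Eif2ak2, the kinase PKR that stops translation, was not called in any comparison. The P libraries of Eif2ak2 at day −2 (35.7 and 84.0 CPM) lay on either side of the C libraries (52.3 and 53.2 CPM). Both genes have an overlapping neighbor in the annotation, Chrnb2 for Adar and Gm6548 for Eif2ak2.

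ISG15 is a ubiquitin-like protein that is joined to other proteins during the response. Isg15 had 4.38 and 3.28 CPM in C cells and 38.6 and 30.6 CPM in P cells at day −2. After induction Isg15 had 53.3 and 64.7 CPM in C cells and 34.7 and 30.9 CPM in P cells. The uninduced and the induced P libraries overlapped, at a level far above uninduced C cells and below induced C cells. Its log2 P/C ratio was 3.17 at day −2 (9.0-fold, SE 0.233, adjusted p = 0.00162), and induction raised it by 3.94 in C cells (SE 0.239, adjusted p = 0.000148). Usp18, the protease that removes ISG15 and also damps the interferon receptor, had 1.44 and 2.04 CPM in C cells and 28.6 and 22.6 CPM in P cells at day −2. After induction Usp18 had 37.1 and 35.2 CPM in C cells and 22.1 and 22.1 CPM in P cells. The uninduced P libraries lay slightly above those of induced P cells, with a log2 ratio to C cells of 3.88 (SE 0.239, adjusted p = 0.00108), and C cells rose by 4.38 (SE 0.243, adjusted p = 9.46e-05).

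Of the 3 enzymes that attach ISG15, Ube2l6 and Uba7 had their highest means in uninduced P cells and Herc6 in induced C cells. Ube2l6, the conjugating enzyme, had 9.16 and 11 CPM in C cells and 24 and 24.4 CPM in P cells at day −2. After induction Ube2l6 had 15.3 and 15.7 CPM in C cells and 11.3 and 11 CPM in P cells. The uninduced P cells stood above all other libraries, and the gene then fell by 1.12 on the log2 scale by induction of P cells (SE 0.168, adjusted p = 0.00531) while it moved by 0.62 in C cells, under the 2-fold threshold. Uba7, the activating enzyme, was also called higher in uninduced P cells (1.42) and not called by induction in either line (0.99 in C cells and −0.98 in P cells). Its uninduced P libraries stood at 24.0 and 13.3 CPM, and the ratio there ranged from 0.94 to 1.78 with a library left out. The call of Uba7 was lost with the libraries of day −2 alone, a replicate block and in several fits with a library left out. Herc6, the mouse ligase of the system, was not called in any comparison, and its largest ratio was 0.72 by induction of C cells (adjusted p = 0.0473).

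The 3 genes of ADP-ribosylation, Parp9, Parp14 and Dtx3l, were called higher both in uninduced P cells and by induction of C cells. Parp14, which transfers ADP-ribose to proteins, had 7.69 and 8.77 CPM in C cells and 27 and 32 CPM in P cells at day −2. After induction Parp14 had 31.2 and 37.9 CPM in C cells and 27.1 and 27 CPM in P cells. Levels in P cells at both days and in induced C cells lay close together, and only uninduced C cells stood apart, with a log2 P/C ratio of 1.84 at day −2 (SE 0.184, adjusted p = 0.00349) and of −0.35 at day 1 (adjusted p = 0.405). Parp9 rose by 1.40 in uninduced P cells and by 1.26 in C cells by induction. For Dtx3l, the ubiquitin ligase that pairs with PARP9, these ratios were 1.07 and 1.48. Without replica 2 of uninduced P cells the first ratio of Dtx3l was 0.60. Its call in uninduced P cells was lost with library totals, the libraries of day −2 alone, a replicate block or an adjusted p under 0.05. It was also lost with any library left out other than replica 1 of uninduced P cells, and the ratio then ranged from 0.60 to 1.42 over all such fits. The genes Parp9 and Dtx3l overlap, so their reads may not be independent. None of the 3 was called by induction of P cells or between induced P and C cells, where the median ratio of the group was −0.16.

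**Figure D4:**
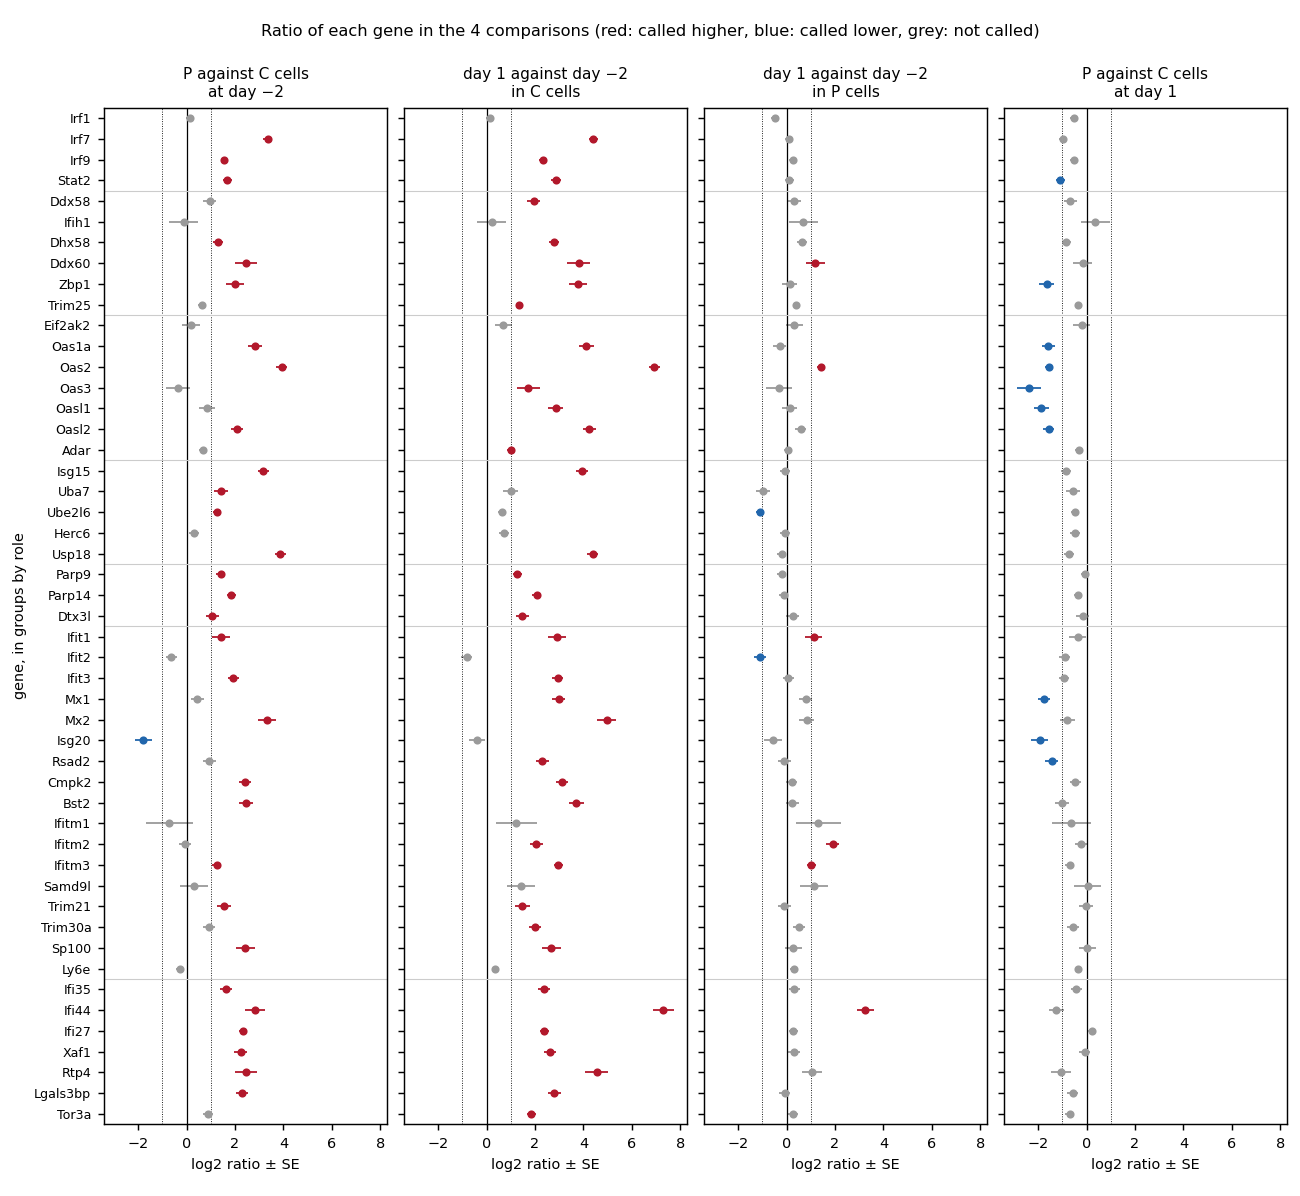
Log2 ratio ± SE of each of the 49 genes (vertical axis, in groups by role) in the 4 comparisons (panels), with called genes in red (higher) or blue (lower), the others in grey, and dotted lines at ratios of 0.5 and 2. Red points number 30 between uninduced P and C cells, 38 in the induction of C cells, 6 in that of P cells and 0 between induced P and C cells, where 10 are blue.

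The 17 measured antiviral effectors moved in both directions. In uninduced P cells, 8 were called higher (Ifit1, Ifit3, Mx2, Cmpk2, Bst2, Ifitm3, Trim21 and Sp100) and 1 lower (Isg20), with a median log2 ratio of 0.94. Induction of C cells called 12 higher, with Mx1, Rsad2, Ifitm2 and Trim30a among them. The comparison of uninduced P with C cells and the induction of C cells share the libraries of uninduced C cells, so ratios given side by side for them are not independent. At day 1, Mx1, Isg20 and Rsad2 were called lower in P than in C cells.

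The 2 Mx genes, which encode GTPases that trap viral components, were called in different comparisons. Mx1 had 2.83 and 2.26 CPM in C cells and 3.99 and 3.0 CPM in P cells at day −2. After induction Mx1 had 18.4 and 22.1 CPM in C cells and 5.13 and 6.86 CPM in P cells. Its libraries of induced C cells stood above all others, the P/C ratio was 0.45 on the log2 scale before induction (adjusted p = 0.322), and at day 1 it was −1.75 (SE 0.257, adjusted p = 0.0174). Mx2 had 0.518 and 1.15 CPM in C cells and 9.8 and 7.1 CPM in P cells at day −2. After induction Mx2 had 23.9 and 27.7 CPM in C cells and 14 and 15.8 CPM in P cells. It was called higher in uninduced P cells by 3.34 (adjusted p = 0.00498) and by induction of C cells by 4.96, while its ratio at day 1 of −0.79 was not called. Its base in uninduced C cells was 13 and 26 counts, and without replica 2 of these cells the ratios were 4.01 and 5.63. The difference between Mx1 and Mx2 was not tested.

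Rsad2 (viperin), an enzyme that makes a chain terminator of viral RNA synthesis, and Cmpk2, a nucleotide kinase encoded next to it in the genome, were also called in different comparisons. Rsad2 had 1.67 and 1.15 CPM in C cells and 2.66 and 2.78 CPM in P cells at day −2. After induction Rsad2 had 7.26 and 6.69 CPM in C cells and 2.69 and 2.43 CPM in P cells, and its P libraries of the 2 days overlapped. Its ratio of 0.94 at day −2 was not called, and that of −1.44 at day 1 was (adjusted p = 0.0345). Cmpk2 was higher in uninduced P cells by 2.42 (adjusted p = 0.0037) and in C cells by induction by 3.11, and its ratio of −0.47 at day 1 was not called. Bst2 (tetherin), which holds budding virus at the cell surface, had 15.6 and 15.6 CPM in C cells and 109.8 and 62.2 CPM in P cells at day −2. After induction Bst2 had 177 and 232 CPM in C cells and 105 and 97.3 CPM in P cells. All P libraries lay above uninduced and below induced C libraries, with a log2 P/C ratio of 2.46 at day −2 (adjusted p = 0.00595) and a rise of 3.71 by induction of C cells.

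Of the 3 Ifit genes, whose products bind foreign RNA, Ifit1 and Ifit3 rose and Ifit2 did not. Ifit3 was higher in uninduced P cells by 1.93 (adjusted p = 0.0066) and in induced C cells by 2.93. Ifit1 had 5.14 and 4.39 CPM in C cells and 7.72 and 17.7 CPM in P cells at day −2. After induction Ifit1 had 36.7 and 34.8 CPM in C cells and 28.8 and 26.4 CPM in P cells. The uninduced P libraries differed 2.28-fold from each other, and the gene was called higher there by 1.42 (adjusted p = 0.0765) and by induction of both C cells (2.91) and P cells (1.11, SE 0.355, adjusted p = 0.0672). Without replica 2 of uninduced P cells the first of these ratios was 0.69, no longer called, and the last 1.84. With a library left out, the first ranged from 0.69 to 1.89 and the last from 0.63 to 1.84. The call of Ifit1 in uninduced P cells was also lost with library totals, the libraries of day −2 alone, a replicate block or an adjusted p under 0.05. Its call by induction of P cells was lost with the libraries of P cells alone or an adjusted p under 0.05. Most fits with a library left out lost both calls. Ifit2 had 23.8 and 22.9 CPM in C cells and 12 and 18.1 CPM in P cells at day −2. After induction Ifit2 had 11.9 and 14.4 CPM in C cells and 7.05 and 7.0 CPM in P cells. It was highest in uninduced C cells and lowest in induced P cells, and it fell by 1.10 on the log2 scale by induction of P cells (SE 0.236, adjusted p = 0.0193), while its ratio of −0.82 in C cells was under the threshold. Ifit3 has a near copy, Ifit3b, with 12 to 76 counts, and Ifit1 an overlapping gene, Ifit1bl1, with 0 to 9.

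Isg20, a 3′-5′ exonuclease of RNA, was the only member called lower in uninduced P cells. It had 5.3 and 4.34 CPM in C cells and 1.76 and 1.03 CPM in P cells at day −2. After induction Isg20 had 3.08 and 4.14 CPM in C cells and 0.983 and 0.887 CPM in P cells. All 4 P libraries were below all 4 C libraries, with a log2 P/C ratio of −1.80 at day −2 (SE 0.351, adjusted p = 0.0347) and of −1.94 at day 1 (SE 0.361, adjusted p = 0.0368). Induction changed it in neither line by the thresholds used (−0.42 in C cells and −0.56 in P cells).

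The Ifitm genes encode membrane proteins that hinder the fusion of viruses with the cell. Ifitm3 had 77.6 and 69 CPM in C cells and 149 and 199 CPM in P cells at day −2. After induction Ifitm3 had 611 and 535 CPM in C cells and 369.7 and 339 CPM in P cells. Each condition stood apart from the others, and the gene was higher in uninduced P cells by 1.25 (adjusted p = 0.0137) and by induction of C cells by 2.97 and of P cells by 1.02 (SE 0.186, adjusted p = 0.0107). Ifitm2 had 114 and 108 CPM in C cells and 80.1 and 131 CPM in P cells at day −2. After induction Ifitm2 had 518 and 400.5 CPM in C cells and 378 and 413 CPM in P cells. It rose by induction in both lines, by 2.05 in C cells and 1.91 in P cells (SE 0.259, adjusted p = 0.00361), with a difference between these responses of −0.15 (SE 0.354, adjusted p = 0.811), and P and C cells overlapped at day −2. Ifitm1 was near the floor, at 0.0533 to 0.710 CPM, and was not called in any comparison.

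Trim21, an antibody-binding ubiquitin ligase, and Sp100, a component of nuclear bodies, rose in uninduced P cells by 1.55 and 2.43 and in induced C cells by 1.48 and 2.68, and their ratios of −0.02 and 0.03 between induced P and C cells were near 0. The ratio of Sp100 in uninduced P cells was 1.71 without replica 2 of these cells. Trim30a, a brake on Toll-like receptor signaling, was called by induction of C cells alone (2.01), as its ratio of 0.91 between uninduced P and C cells did not reach 2-fold. Samd9l, a restriction factor, and Ly6e, a surface protein that hinders coronaviruses, were not called in any comparison. The P libraries of Samd9l at day −2 (14.1 and 61.9 CPM) lay on either side of its C libraries (29.2 and 31.9 CPM), and Ly6e varied from 110.4 to 201.5 CPM.

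The last 7 members, whose antiviral roles are less settled, rose by induction of C cells without exception, and 6 of them were called higher in uninduced P cells, with a median log2 ratio of 2.31. Ifi44 showed the largest ratio of any member in an induction, from a base of 25 and 12 counts in uninduced C cells. With a library left out, this log2 ratio ranged from 6.94 to 7.84, so the fold is imprecise. Ifi44 had 0.996 and 0.532 CPM in C cells and 3.67 and 7.1 CPM in P cells at day −2. After induction Ifi44 had 132 and 114 CPM in C cells and 55.3 and 47.9 CPM in P cells. The 4 conditions did not overlap, and induction raised it by 7.31 in C cells (158-fold, SE 0.445, adjusted p = 0.000148) and by 3.25 in P cells (SE 0.356, adjusted p = 0.00158), from a P/C ratio of 2.81 at day −2 (adjusted p = 0.0125) to one of −1.25 at day 1 (adjusted p = 0.102), which was not called.

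Ifi27, which encodes a small hydrophobic membrane protein, had 27.4 and 28.8 CPM in C cells and 163 and 119.6 CPM in P cells at day −2. After induction Ifi27 had 142 and 151 CPM in C cells and 173 and 169.8 CPM in P cells. The libraries of uninduced P cells overlapped those of induced C cells and lay below those of induced P cells, with a log2 P/C ratio of 2.33 at day −2 (SE 0.182, adjusted p = 0.00199) and of 0.23 at day 1 (adjusted p = 0.637). Its span overlaps that of Ifi27l2a, which itself went from 15 and 19 counts in uninduced C cells to 2068 and 1475 in induced C cells, and how shared reads were counted was not stated. Lgals3bp, a secreted glycoprotein, rose by 2.31 in uninduced P cells and 2.80 in induced C cells. The same pair of ratios was 2.23 and 2.62 for Xaf1, an antagonist of the caspase inhibitor XIAP, and 1.63 and 2.37 for Ifi35. For Rtp4, a receptor transporter protein whose span overlaps that of Masp1, the ratios were 2.44 and 4.54. Without replica 2 of uninduced P cells the first of these was 1.53, and the interaction of Rtp4 went from −3.49 to −2.58. Tor3a, a torsin ATPase, rose by 1.85 in C cells, and its ratio of 0.88 between uninduced P and C cells was not called.

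Whether C and P cells responded differently to induction was tested with an interaction term, with calls made at an adjusted p under 0.1. The response of P cells was called lower than that of C cells in 29 of 49 members and higher in 0, against 1.93% and 0.435% of all genes tested, and the median difference was −2.09 on the log2 scale. At an unadjusted p under 0.05, 41 members passed in edgeR's quasi-likelihood test, DESeq2 called 0 higher as well, and 47 of the 49 differences were negative. The 29 calls fell on 3 of 4 transcription factors, 3 of 6 sensors, 4 of 7 enzymes of double-stranded RNA, 3 of 5 genes of the ISG15 system, 2 of 3 of ADP-ribosylation, 7 of 17 effectors and all 7 of the others. The lowest p-values were those of Oas2 (−5.50, SE 0.281, adjusted p = 0.00289), Irf7 (−4.32, SE 0.249, adjusted p = 0.00289), Usp18 (−4.59, SE 0.312, adjusted p = 0.00399), Isg15 (−4.02, SE 0.311, adjusted p = 0.00415) and Oas1a (−4.40, SE 0.405, adjusted p = 0.007). The interaction uses the same 8 libraries as the 4 comparisons, so these values restate them in part.

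By role, the median log2 P/C ratio at day −2 was 1.63 for the transcription factors, 1.13 for the sensors and 0.94 for the effectors, and at day 1 it was −0.75, −0.51 and −0.64. The ranges of the 3 groups overlapped in each comparison, and the differences between roles were not tested. In 5 members, Stat2, Zbp1, Oas1a, Oas2 and Oasl2, P cells were called higher than C cells before induction and lower after it. The share of all genes with this pattern was not counted, and 0 of the 10 lower calls at day 1 held under every alternative given below. Irf1, Ifih1, Eif2ak2, Herc6, Ifitm1, Samd9l and Ly6e were called in none of the 4 comparisons.

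The number of calls depended on the libraries in the fit, for the members as for all genes. With the libraries of day −2 alone, 5 members (Irf7, Oas2, Usp18, Isg15 and Ifi27) and 0.645% of all genes were called in P against C cells. Without replica 1 or 2 of uninduced C cells, 17 or 14 members were called in that comparison, beside 1.5% or 1.36% of all genes. Without replica 1 of uninduced P cells it called 33 members (32 higher and 1 lower) and 7.04% of all genes, and without replica 2 it called 32 (29 higher and 3 lower) and 32.2% of all genes.

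For the induction of P cells, 4 or 5 members were called without replica 1 or 2 of induced P cells, beside 10.2% or 9.61% of all genes. Without replica 2 of uninduced P cells 12 of 49 were called, where 36.9% of all genes were. Between induced P and C cells, 2 or 1 members were called without replica 1 or 2 of induced C cells, beside 1.18% or 1.04% of all genes. No member was called there without either replica of induced P cells, where 0.622% and 0.48% of all genes were and 19 and 18 members passed an unadjusted p under 0.05 in edgeR's quasi-likelihood test.

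The interaction was called in 7 or 9 members without replica 1 or 2 of uninduced C cells (0.285% or 0.345% of all genes), and 15 or 10 without one of induced C cells (0.517% or 0.405%). Without either replica of induced P cells it was 6 (0.232%). Without replica 1 of uninduced P cells, 42 members were called lower beside 11.4% of all genes in either direction. Without replica 2 of uninduced P cells, 62.5% of all genes were called, and of the members 41 were called lower and 3 higher. Of these 3, Samd9l (−0.27 with all libraries and 1.17 here) and Eif2ak2 (−0.38 and 0.37) had the opposite sign with all libraries, where they were not called. Samd9l turned likewise in uninduced P against C cells, from 0.32 to −1.12.

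Other genes of the interferon pathway, listed by hand from its ligands to its inhibitors, were read in the same fit. Of 45 that are not members, 32 were tested, and uninduced P against C cells called 2 higher (Nlrc5 and Irf5) and 1 lower (Ptpn6). Nlrc5, the activator of class I antigen genes, rose by 1.66 in uninduced P cells and by 2.24 in C cells by induction. Irf5, a factor of inflammatory genes, was higher in P cells at both days (1.12 and 1.51) and fell by 1.46 and 1.07 on the log2 scale by induction of C and P cells.

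Of the negative regulators, Socs1, an inhibitor of JAK kinases, was lower in induced P cells (−1.40, adjusted p = 0.0549), and Ptpn6, the phosphatase SHP-1, was lower in uninduced P cells (−1.55, adjusted p = 0.0261) and after induction of both lines (−2.003 in C cells and −1.55 in P cells). Socs3, the inhibitor induced by IL-6-type cytokines, rose by 2.62 in C cells and 1.45 in P cells by induction. The remaining calls by induction of C cells were Jak2 (1.26), Irf2 (1.004), Trex1 (1.11) and Ticam1 (1.15) higher and Traf3 (−1.02) lower. In P cells they were Tmem173, which encodes the DNA sensing adaptor STING (−1.34), Traf3 (−1.05) and Il10rb (−1.19), all lower, and Il10rb was also lower in induced P than in induced C cells (−1.005). Of the 32, 6 were called higher and 3 lower by induction of C cells, 1 higher and 5 lower by induction of P cells, and 1 higher and 2 lower between induced P and C cells. The shares of all genes called are those given above for each comparison, among them 4.83% higher and 2.15% lower between uninduced P and C cells and 9.68% lower by induction of C cells, and several counts of this list lie near them.

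The receptor chains of type I interferon were read in every library. Ifnar1 had 63.3 and 67.3 CPM in C cells and 85.3 and 71.1 CPM in P cells at day −2. After induction Ifnar1 had 92.6 and 86 CPM in C cells and 72.1 and 79.6 CPM in P cells. For the other chain, Ifnar2 had 29.5 and 34.6 CPM in C cells and 35.7 and 40.9 CPM in P cells at day −2. After induction Ifnar2 had 61 and 47.7 CPM in C cells and 34.6 and 32.2 CPM in P cells. Neither receptor chain was called in any comparison. None of the 11 interferon genes listed passed the filter on low counts. Ifnb1, the interferon that fibroblasts make first, had 0 to 3 counts per library, Ifne at most 7 and Ifng at most 6, and Ifna1, Ifna2 and Ifnk were at 0 in every library, which at these depths allows up to 0.107 to 0.160 CPM each.

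Marker genes of other cell types were measured beside the members. The 10 macrophage and leukocyte markers, all with a row, summed to 22.7 to 24.0 CPM in uninduced C cells, where the members were lowest, and to 12.8 to 12.9 in uninduced P cells, 13.7 to 15.6 in induced C cells and 8.76 to 10.6 in induced P cells. Ptprc (CD45) had 0 to 8 counts per library, Adgre1 (F4/80) 0 to 4 and Cd3e 0 to 3. Single markers moved in other directions than the sum, which rests mainly on Cd14 (79 to 386 counts) and Csf1r (3 to 144). Lyz2, a lysozyme of macrophages, had 7 and 2 counts in uninduced C cells and 31 and 126 in uninduced P cells and was called higher there (4.01, adjusted p = 0.0365). Cd68 was called higher by induction of C cells (1.06) and of P cells (1.63), at 19 to 113 counts, and Itgam had 37 counts in replica 1 of uninduced P cells and 2 to 9 in the others. The 6 endothelial and epithelial markers summed to between 0.478 and 4.50 CPM over all libraries. Of the 4 tested, only Krt8 was called, lower in uninduced P cells (−3.81) and by induction of C cells (−3.90). Krt8 had 3.11 and 2.35 CPM in uninduced C cells and 0.160 and 0.214 CPM in uninduced P cells. The 10 adipocyte markers summed to 81.0 to 81.2 CPM in uninduced C cells and 237 to 252 in uninduced P cells. After induction they summed to 187 in C cells and 598 to 642 in P cells. Induced P cells thus held the highest sum here and induced C cells the highest median of the members. This sum rests mainly on Lpl (57.7 to 417 CPM). By induction of C cells 3 of the 9 tested were called higher and Fabp4 lower (−1.01), against 10.7% and 9.68% of all genes. Pparg stood at 19.2 and 19.5 CPM in uninduced C cells and 12.1 and 21.2 in uninduced P cells. There, 6 of the 9 were called higher, against 4.83% of all genes. The part of these cell types in the results was not tested. A change of all cells cannot be told apart from a change in a fraction of them in these bulk libraries.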

How the data were processed

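RNA from 3T3-L1 C and P cells at days −2 and 1 was sequenced on the Ion Torrent system in 8 libraries. The authors filtered the reads with the FASTX-Toolkit, mapped them to mm9 with TopHat 2.0.9, and deposited whole-number counts per NCBI gene, not normalized, made with GenomicFeatures, GenomicRanges and GenomicAlignments on the UCSC refGene annotation. The use of strand and of reads shared by genes is not given in the sources used here. The series' own comparisons were made with DESeq.

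Symbols were matched by gene number to a RefSeq gene list of a later build (GRCm38.p6), for 23929 of 24013 genes. That list also gave the overlaps between genes. No mm9 coordinates and no gene lengths were used, so levels are not compared between genes.

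Tests used edgeR 4.0.16 (with limma 3.58.1) under R 4.3.3. After filterByExpr and TMM scaling (factors 0.837 to 1.08), edgeR's quasi-likelihood test was run on 13339 genes in the 8 libraries together, each condition having its own mean, and p-values are two-sided and Benjamini-Hochberg adjusted over all of them. Log2 ratios come from this fit and the SE is the ratio divided by the root of its F statistic. A prior count of 2 was used for log2 CPM and 0.5 CPM was added in the colour map. Genes were called at an adjusted p under 0.1 and a ratio over 2 or under 0.5, and interactions at an adjusted p under 0.1 alone. The scripts were tested on simulated data.

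The members, their roles, the pathway list and the marker lists were chosen with earlier results of these data known. Every member is accounted for by role. The 5 higher and 5 lower called members with the lowest p in each comparison are given with every library's value, SE and adjusted p, with at least 1 gene per role, and other genes of the pathway are named where they were called. One further gene of the pathway list was left out and is not reported here. Ddx58, Irf1, Bst2, Mx2, Rsad2, Parp14, Stat2, Zbp1 and the receptor genes are shown in full as examples beyond the lowest p-values.

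The alternatives were DESeq2 1.42.0, its size factors or library totals, each comparison with its own conditions only, no filter or a minimum of 10 counts throughout, the replicate number as a block, leaving out 1 library at a time, an adjusted p under 0.05, and dropping the ratio threshold.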

Additional observations from a re-analysis of the deposited data

Results flagged for a closer look

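For 29 interferon-stimulated genes P and C cells responded differently to induction by the interaction term of edgeR's quasi-likelihood test (Benjamini-Hochberg adjusted p under 0.1 over all genes tested), and each difference below is the log2 response of P cells minus that of C cells. Among the transcription factors it was −4.32 for Irf7, −2.09 for Irf9 and −2.77 for Stat2. Among the sensors it was −2.15 for Dhx58, −3.65 for Zbp1 and −0.96 for Trim25. Among the enzymes of double-stranded RNA it was −4.40 for Oas1a, −5.50 for Oas2, −2.73 for Oasl1 and −3.66 for Oasl2. Among the ISG15 system it was −4.02 for Isg15, −1.74 for Ube2l6 and −4.59 for Usp18. Among ADP-ribosylation it was −1.47 for Parp9 and −2.19 for Parp14. Among the effectors it was −2.86 for Ifit3, −2.20 for Mx1, −4.13 for Mx2, −2.38 for Rsad2, −2.89 for Cmpk2, −3.48 for Bst2 and −1.94 for Ifitm3. Among the other interferon-stimulated genes it was −2.05 for Ifi35, −4.06 for Ifi44, −2.10 for Ifi27, −2.31 for Xaf1, −3.49 for Rtp4, −2.88 for Lgals3bp and −1.58 for Tor3a. The adjusted p-values ran from 0.00289 for Oas2 to 0.0852 for Trim25.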

How the results depend on the processing

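With 2 replicas per condition the spread is pooled over 4 conditions, and a condition left with 1 library is assumed to vary like the others. No ratio called with all libraries reversed its sign. Without replica 2 of uninduced P cells, Samd9l and Eif2ak2, not called otherwise, were called in the interaction with the opposite sign (1.17 and 0.37), and Samd9l in uninduced P against C cells (−1.12). The induction of C cells called 35 to 42 members under every alternative. Of its 38 calls, 35 held in all of them (the exceptions were Adar, Oas3 and Trim21). Oas2, Oas3 and Zbp1 were not tested at a minimum of 10 counts, so in every comparison their calls were judged without that alternative. In the induction of P cells, 3 of 8 calls held in all (Ifi44, Ifitm2 and Oas2). This count was 4 with its own conditions only, 13 with no ratio threshold, and 4 to 12 with a library left out. In P against C cells at day −2, 5 of 31 calls held in all, 5 members were called with its own conditions only, and 14 to 33 with a library left out. At day 1 the range with a library left out was 0 to 13, and 0 of 10 calls held in all. For the interaction it was 6 to 44, and 6 of 29 calls held (Irf7, Isg15, Usp18, Oas1a, Oas2 and Oasl2). Fewer residual degrees of freedom, from fewer libraries, are part of these fits by construction. Library totals moved the median of all genes by up to 0.29 on the log2 scale, in the interaction, and the members called were then 37, 7, 29, 9 and 26 in the order of this paragraph, and DESeq2 called 39, 10, 31, 12 and 38.

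The deviations of libraries of the same number correlated between −0.355 and 0.209 over the pairs of conditions. The labels do not say whether such libraries share a batch. These values cannot decide it, since the numbers may not follow the same order in each condition. A replicate block gave 38, 8, 28, 9 and 21 calls in the same order. With the numbers of P cells at day 1 crossed, chosen after seeing the data, the block gave 38, 8, 30, 10 and 23 calls, and with all numbers at day 1 crossed it gave 39, 9, 31, 11 and 30.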
